A study of Mus musculus with 6 samples.

Results

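Hypoxia-inducible factor (HIF) target genes outside glycolysis were followed in primary renal tubular epithelial cells (PTECs) of mice in which VHL, or VHL and SETD2, were targeted. They were the 9 genes Vegfa, Adm, Epo, Cxcr4, Car9, Bnip3, Pdk1, Ndrg1 and Ankrd37, taken by symbol from a table of 46095 genes. All 9 were in the table, and 8 had enough counts for a test, Epo being the exception. The data were RNA-seq counts from 6 libraries of PTECs of 10-week-old C57 mice, 3 with the genotype label VHL-KO (replicates 1, 2 and 4) and 3 with VHL-KO;SETD2-KO (replicates 2, 3 and 4). Values below follow this order, and both names stand for the labels. Both groups carried the Ksp-Cre transgene, which is driven by the Cdh16 promoter and acts in renal tubules, and floxed VHL alleles. The VHL-KO;SETD2-KO mice carried floxed Setd2 alleles as well. No library with intact VHL was analysed here, so the induction of HIF targets by VHL loss itself could not be measured, and the comparison asks whether their transcripts differed once SETD2 was also targeted.

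HIF is a transcription factor made of an oxygen-regulated alpha subunit and a stable beta subunit. In oxygenated cells the alpha subunit is hydroxylated, bound by the VHL protein and degraded, and in cells without VHL it accumulates and binds short DNA elements with the core ACGTG or GCGTG near its target genes. The targets outside glycolysis promote vessel growth and red cell production, buffer pH, steer pyruvate away from mitochondria and remove mitochondria, and Car9 in particular is a well-known marker of VHL-deficient renal carcinoma. SETD2 places the trimethyl mark on lysine 36 of histone H3 along transcribed genes.

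The promoter sequences of 4 members are shown because they belong to the members whose levels separated the labels, in opposite directions (Car9 against Vegfa and Adm), and the member with the most core motifs (Bnip3). Each is the 250 bases before the RefSeq transcript start in GRCm38.p6, 5′ to 3′ on the gene's strand, with every ACGTG or GCGTG, on either strand and including overlaps, in capitals. Car9 was read from chr4:43506776-43507025 (plus strand), Adm from chr7:110627407-110627656 (plus strand), Bnip3 from chr7:138909507-138909756 (minus strand) and Vegfa from chr17:46032378-46032627 (minus strand).
Car9: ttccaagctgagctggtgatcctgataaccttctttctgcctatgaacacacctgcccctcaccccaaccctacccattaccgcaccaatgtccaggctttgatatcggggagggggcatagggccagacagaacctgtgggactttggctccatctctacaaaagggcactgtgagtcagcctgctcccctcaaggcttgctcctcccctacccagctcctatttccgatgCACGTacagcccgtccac
Adm: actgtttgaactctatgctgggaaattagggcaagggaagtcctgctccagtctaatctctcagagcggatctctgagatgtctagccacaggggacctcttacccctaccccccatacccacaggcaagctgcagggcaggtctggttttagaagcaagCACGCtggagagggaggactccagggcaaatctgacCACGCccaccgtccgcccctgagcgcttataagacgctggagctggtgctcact
Bnip3: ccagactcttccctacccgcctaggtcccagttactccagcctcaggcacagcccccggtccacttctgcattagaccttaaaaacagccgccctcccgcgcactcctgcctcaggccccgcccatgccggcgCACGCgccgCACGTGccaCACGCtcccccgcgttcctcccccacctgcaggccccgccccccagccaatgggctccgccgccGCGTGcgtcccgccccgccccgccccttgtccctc
Vegfa: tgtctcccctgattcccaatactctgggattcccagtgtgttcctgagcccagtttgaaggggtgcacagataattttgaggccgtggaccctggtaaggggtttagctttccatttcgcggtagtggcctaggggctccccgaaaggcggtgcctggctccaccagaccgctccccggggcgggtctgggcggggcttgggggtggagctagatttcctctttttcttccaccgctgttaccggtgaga

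In GRCm38 the genes themselves lie at chr4:43507026-43513729 (Car9), chr7:110627657-110629820 (Adm), chr7:138890836-138909506 (Bnip3), chr17:46016993-46032377 (Vegfa), chr1:128588199-128592299 (Cxcr4), chr2:71873215-71903858 (Pdk1), chr5:137483020-137485816 (Epo), chr8:45996908-46000414 (Ankrd37) and chr15:66929318-66969641 (Ndrg1). The Car9 promoter held 1 match, which began 18 bases before the start, and the Adm promoter held 2, at 90 and 54 bases. The Bnip3 promoter held 5 overlapping or neighbouring matches, at 117, 108, 107, 99 and 35 bases. The Vegfa window shown held 0 matches, while the window before a second RefSeq start of Vegfa held 2. That second window, chr17:46025164-46025413, lies inside the gene. Cxcr4 and Pdk1 had 1 match each, Epo 2 and Ankrd37 4. Of the 8 members in the promoter table all 8 had a match in at least 1 of their windows. For Vegfa this was only the window inside the gene. Counted in the same way, 11226 of 27025 genes (41.5%) and 23 of 26 other HIF targets in the table (88.5%) had a match. A match is a description of the letters in these windows and says nothing of binding in these cells.

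Totals ranged from 11168552 to 17883466 counts per library, and the smallest signal taken as detectable, 3 counts, corresponded to 0.159 to 0.281 CPM (counts scaled to a common library size by TMM), counting error only. The library labelled VHL-KO replicate 4 stood apart from the others. Its rank correlations with the other 5 across the tested genes lay between 0.717 and 0.765, against 0.937 to 0.986 in the 10 other pairs, and mitochondrial transcripts took 11.3% of its counts against 25.9% to 36.4%. Over all tested genes its median distance from the median of the other 5 was 1.44 on the log2 CPM scale, while each other library lay 0.25 to 0.31 from the rest. Fold changes of the members are therefore given with and without this library. Setd2 had 71.5, 73.9 and 12.3 CPM in VHL-KO and 79.6, 57.4 and 89.6 CPM in VHL-KO;SETD2-KO (log2 fold change 0.52, standard error 0.64, edgeR adjusted p = 0.787). Without VHL-KO replicate 4 its log2 fold change was 0.05, and over the alternatives 0.04 to 1.48, so that it was not lower under the second label in any fit. Vhl had 14.1, 12.9 and 25.8 CPM against 14.4, 17.9 and 11.9 CPM (log2 fold change -0.26, standard error 0.43, edgeR adjusted p = 0.833). Counts are per gene, and reads from the floxed exons could not be told from those of other exons.

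Transcripts of other cell types were present beside those of the proximal tubule. The 8 proximal tubule markers summed to between 14123 and 23004 CPM in VHL-KO and between 5994 and 8689 CPM in VHL-KO;SETD2-KO, with all 8 above 0 in every library. The 5 podocyte markers summed to between 1437 and 2089 CPM and between 1971 and 4836 CPM, and the 6 endothelial markers to between 1017 and 1792 CPM and between 1338 and 4250 CPM, in both lists with the high values in replicates 2 and 4 of the VHL-KO;SETD2-KO label. The 6 leukocyte markers ranged from 59.2 to 275.9 CPM, the 5 fibroblast and pericyte markers from 38.0 to 195.7 CPM, the 5 markers of thick limb and distal tubule from 1195 to 4798 CPM, the 7 of collecting duct from 51.6 to 440.8 CPM and the 5 erythroid markers from 534 to 1884 CPM, each with overlapping groups. In bulk RNA, fewer cells of a type and less RNA per cell cannot be told apart. The part of these cells in the differences below was not tested. Ratios to single genes, given for some genes below, only describe the libraries.

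Of the 8 tested members, 6 had a higher and 2 a lower fitted level in VHL-KO;SETD2-KO. Car9 was lower by 1.5-fold or more at an unadjusted p under 0.05, and no member was higher. Over all 14611 tested genes the same thresholds called 4.68% lower and 2.65% higher. With Benjamini-Hochberg adjusted p-values, edgeR's quasi-likelihood test called 0 of the 8 members and 0.00684% of all tested genes, and DESeq2's Wald test called 1 of 8 (Car9) without adjustment. DESeq2 gave an adjusted p to 3 of the 8, Car9 not among them, and called 0 of those 3. Genotypes separated completely for 2 members that were higher, Vegfa and Adm, and 1 that was lower, Car9. Among all tested genes 9.62% were higher and 11.0% lower without overlap. The median log2 fold change of the 8 members was 0.32, against 0.0090 for all tested genes. Pdk1 had the largest positive value, 0.89, and Car9 the only one beyond -1.

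**Figure D1:**
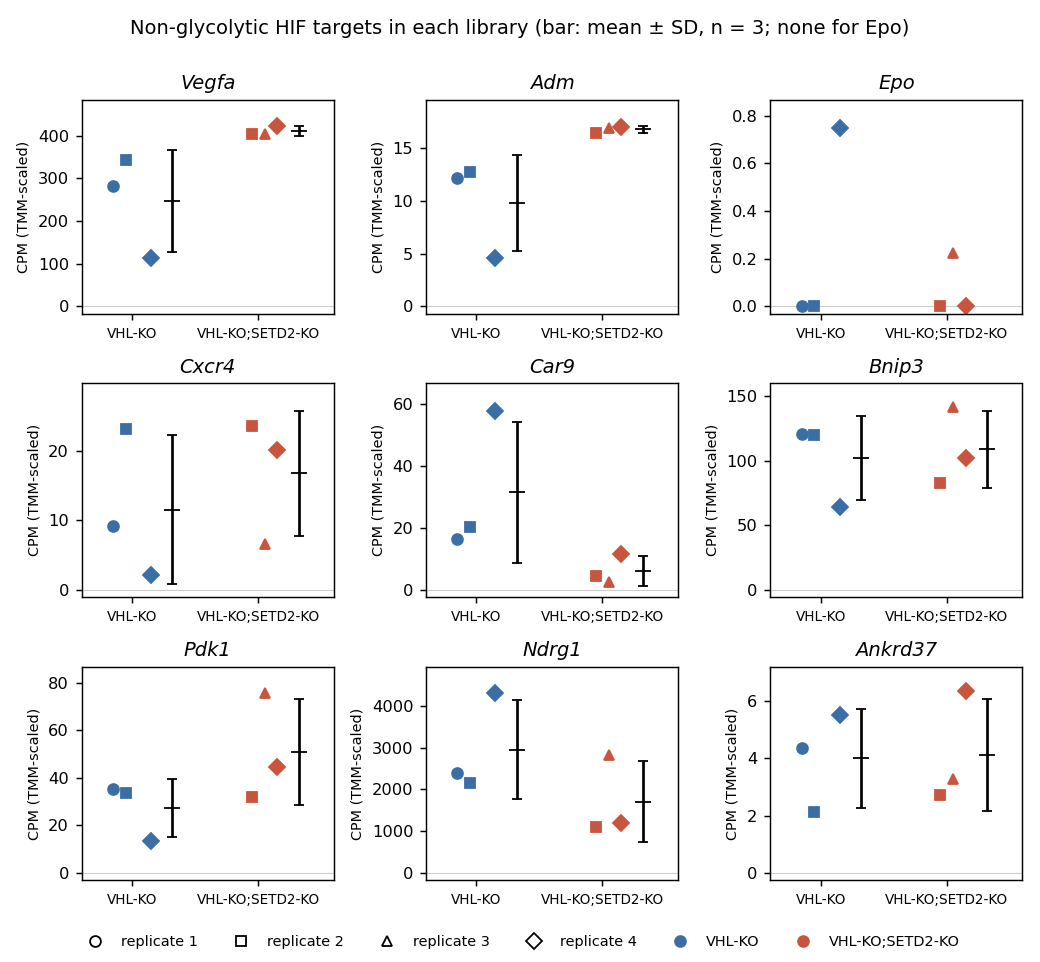
Levels of the 9 genes in CPM, scaled by TMM (edgeR's normalization), with 1 point per library, colour for the genotype label and shape for the replicate number. Horizontal and vertical bars give the mean ± SD (n = 3) and are left out for Epo. The labels separate for Vegfa, Adm and Car9 and overlap for the others.

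Car9 encodes a carbonic anhydrase of the cell surface that takes part in pH regulation. Its levels were 16.3, 20.4 and 57.9 CPM in VHL-KO, from 269, 220 and 619 counts. In VHL-KO;SETD2-KO they were 4.41, 2.31 and 11.7 CPM, from 83, 41 and 186 counts. Every library of the second label lay below every library of the first, and the lowest and highest of the 6 libraries differed 25.1-fold. The means were 31.5 ± 22.9 CPM (SD, n = 3) and 6.13 ± 4.91 CPM (SD, n = 3), a 5.15-fold lower level with a log2 fold change of -2.36 (95% interval -4.07 to -0.65, edgeR unadjusted p = 0.0127, adjusted p = 0.625). Leaving out VHL-KO replicate 4, which held the highest value, the log2 fold change was -1.59 (95% interval -3.11 to -0.07, edgeR unadjusted p = 0.0430, adjusted p = 0.231). Over every setting tried, its unadjusted p lay between 0.000583 and 0.0496. An exact permutation test of the CPM values gave p = 0.1, the smallest that 3 against 3 libraries allow. Complete separation always gives this value, so it adds nothing to the separation.

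Like Car9, proximal tubule markers summed lower in each VHL-KO;SETD2-KO library than in any VHL-KO library. In the fit 7 of the 8 were lower and 2 were called at an unadjusted p. Of all 14611 tested genes 7237 were fitted lower, and 4.68% were called lower. Without VHL-KO replicate 4, Slc5a12 and Slc22a8 were not lower (log2 fold changes 0.02 and 0.11), and the other markers lay between -1.41 and -0.14. Cdh16, the kidney-specific cadherin of tubular epithelium, had 530.8, 516.6 and 2257 CPM in VHL-KO and 331.5, 684.1 and 359.0 CPM in VHL-KO;SETD2-KO (log2 fold change -1.27, edgeR adjusted p = 0.625), and -0.20 when VHL-KO replicate 4 was left out. Divided by Cdh16, Car9 stood at 0.0307, 0.0394 and 0.0257 in VHL-KO and at 0.0133, 0.00338 and 0.0325 in VHL-KO;SETD2-KO. On this ratio the labels overlapped, with VHL-KO;SETD2-KO replicate 4 between the VHL-KO values, while the other two stayed below. The ratio of Car9 to Slc22a6, an organic anion transporter of the proximal tubule, overlapped too, with 0.0149 to 0.0232 against 0.00764 to 0.0249. Slc22a6 itself separated the labels in the same direction as Car9. Its log2 fold change was -1.93 (edgeR unadjusted p = 0.00627, adjusted p = 0.625), and -1.41 without VHL-KO replicate 4. What the 2 genes share was not tested.

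Vegfa and Adm encode secreted factors, the growth factor VEGF-A that drives vessel growth and the vasodilator peptide adrenomedullin. Vegfa had 282.7, 343.1 and 113.7 CPM in VHL-KO and 402.7, 404.4 and 423.4 CPM in VHL-KO;SETD2-KO. Adm had 12.1, 12.7 and 4.58 CPM and 16.4, 16.9 and 17.0 CPM. For both genes each library of the second label was above each of the first, the lowest value was that of VHL-KO replicate 4, and the spread was narrow in VHL-KO;SETD2-KO, at 410.2 ± 11.5 CPM for Vegfa and 16.8 ± 0.34 CPM for Adm (SD, n = 3). Over all 6 libraries the 95% intervals of both fitted differences included 0. Vegfa was 1.66-fold higher, with a log2 fold change of 0.73 (95% interval -0.41 to 1.88, edgeR adjusted p = 0.650), and Adm 1.71-fold higher, with 0.77 (95% interval -0.30 to 1.85, edgeR adjusted p = 0.628). Leaving out VHL-KO replicate 4 both differences shrank and their intervals narrowed, to 0.39 for Vegfa (-0.03 to 0.81, edgeR adjusted p = 0.271) and 0.43 for Adm (0.07 to 0.79, edgeR adjusted p = 0.195). Exact permutation tests of the CPM values gave p = 0.1 for each gene, the smallest the design allows. As for Car9, this value follows from the complete separation and adds nothing to it.

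These secreted factors ran in parallel through the libraries. After centring each gene on its own mean log2 CPM, Vegfa and Adm differed by a root mean square of 0.07 over the 6 libraries and by 0.07 without VHL-KO replicate 4. Of the 14610 other tested genes, 3 lay closer to Vegfa than Adm did with all libraries, and 48 without that library. Their levels differed, with 76.6 CPM per kb of exon for Vegfa and 8.20 for Adm. Markers of podocytes, which express Vegfa, and of endothelial cells, which express Adm, were high in replicates 2 and 4 of VHL-KO;SETD2-KO, and their part in the Vegfa and Adm values was not tested. In VHL-KO;SETD2-KO replicate 3, Pecam1, an endothelial adhesion molecule, had 204.6 CPM against 607.8 and 488.8 CPM in the other two. The ratio of Adm to Pecam1 was 0.0557, 0.0514 and 0.0220 in VHL-KO and 0.0269, 0.0826 and 0.0348 in VHL-KO;SETD2-KO, with overlapping labels.

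**Figure D2:**
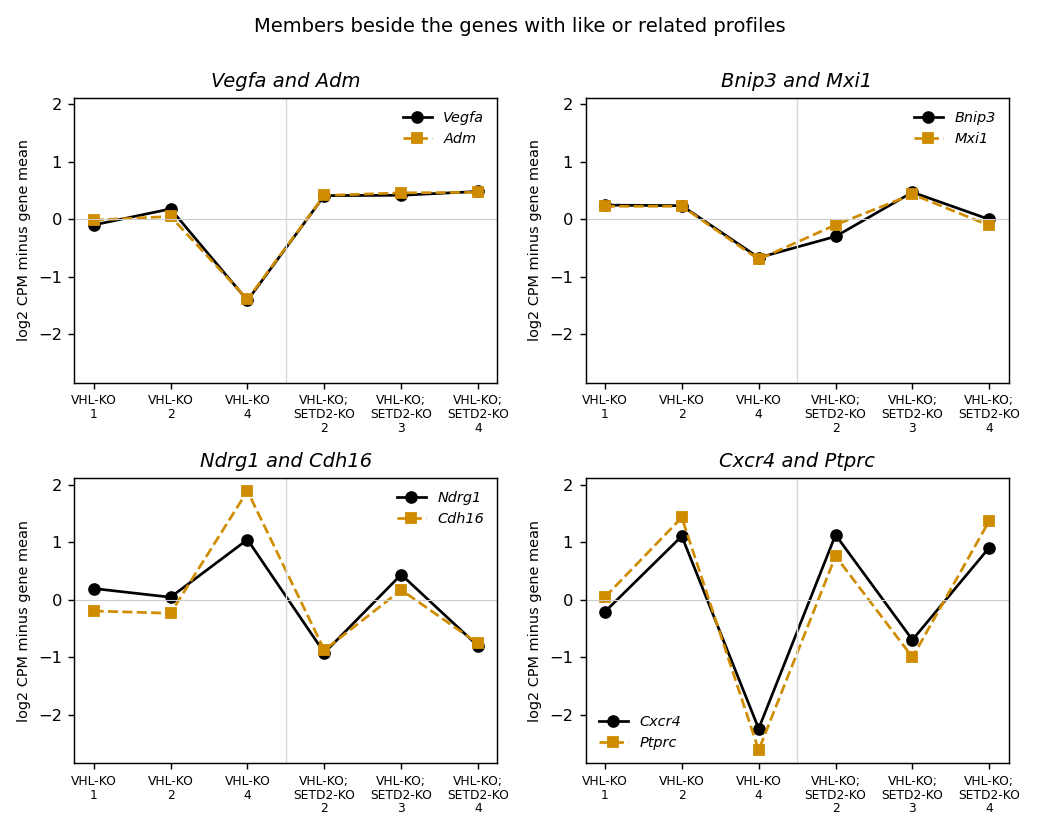
Log2 CPM of gene pairs in each library, after subtraction of each gene's mean over the 6 libraries. Lines only join the points of a gene, and the vertical line separates the labels. Vegfa and Adm, and Bnip3 and Mxi1, nearly coincide (root mean square difference 0.07 and 0.09), Ndrg1 follows Cdh16 in order (0.41), and Cxcr4 follows the leukocyte gene Ptprc (0.35).

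Epo, the hormone that drives red cell formation and that the adult kidney makes in interstitial cells, was close to undetected. It had 8 counts in VHL-KO replicate 4, 4 counts in VHL-KO;SETD2-KO replicate 3 and 0 counts in the other 4 libraries. The counts above 0 corresponded to 0.748 and 0.225 CPM, and 0 counts allow up to 0.278 CPM in VHL-KO replicate 2. Epo was present in a library of each label, and a difference between the labels was not detectable at this depth.

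Cxcr4 encodes a chemokine receptor found on leukocytes and other cells. Its levels were 9.21, 23.1 and 2.15 CPM in VHL-KO and 23.5, 6.53 and 20.1 CPM in VHL-KO;SETD2-KO, a 10.9-fold range with full overlap of the labels (log2 fold change 0.54, 95% interval -1.32 to 2.40, edgeR adjusted p = 0.820). Leaving out VHL-KO replicate 4 the log2 fold change was 0.05. Ptprc, the pan-leukocyte gene for CD45, had 21.4, 56.2 and 3.27 CPM and then 35.2, 10.3 and 53.9 CPM, so that the same 3 libraries were high and the same 3 low for both genes. Among the other leukocyte markers, Cd68 and Lyz2 were high and low in the same libraries, though lowest in VHL-KO;SETD2-KO replicate 3. Csf1r, Adgre1 and Cd3e did not split the libraries this way. Csf1r, a receptor of macrophages, was highest in VHL-KO replicate 4, at 79.9 CPM, where Cxcr4 was lowest. The ratio of Cxcr4 to Ptprc stayed between 0.373 and 0.668, a 1.79-fold range. Among the other HIF targets, Flt1, a VEGF receptor of endothelial cells, was nearest to Cxcr4 in profile, with a root mean square difference of 0.47 against 0.35 for Ptprc. Of the 14610 other tested genes, 42 lay closer to Cxcr4 than Ptprc did, and 178 closer than Flt1.

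Bnip3, a receptor on mitochondria for their removal by autophagy, and Pdk1, a kinase that holds pyruvate out of the citric acid cycle, act on mitochondria. Bnip3 had 121.2, 120.4 and 64.3 CPM in VHL-KO and 83.0, 141.6 and 102.0 CPM in VHL-KO;SETD2-KO. The labels overlapped and the means were close, at 101.9 ± 32.6 and 108.9 ± 29.9 CPM (SD, n = 3). Its log2 fold change was 0.10 (95% interval -0.91 to 1.10, edgeR adjusted p = 0.943) and -0.15 without VHL-KO replicate 4 (-0.74 to 0.44), so that the second fit leaves changes of up to 0.74 downward and 0.44 upward possible. Pdk1 had 35.3, 33.8 and 13.4 CPM against 32.1, 75.9 and 44.7 CPM, with overlapping labels. Its highest value came from VHL-KO;SETD2-KO replicate 3, which also gave the highest Bnip3. The log2 fold change of Pdk1 was 0.89 (95% interval -0.32 to 2.09, edgeR adjusted p = 0.626), 0.56 without VHL-KO replicate 4 and 0.49 without VHL-KO;SETD2-KO replicate 3. Among the other HIF targets, Mxi1, a transcriptional repressor that opposes MYC, was nearest to Bnip3, with a root mean square difference of 0.09, and 4 of 14610 other genes were nearer.

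Ndrg1 and Ankrd37 belong to the stress response. Ndrg1, a hypoxia- and differentiation-induced gene, was the most abundant member, at 2393, 2155 and 4317 CPM in VHL-KO and 1102, 2831 and 1196 CPM in VHL-KO;SETD2-KO. The labels overlapped, with replicate 3 of the second label above replicates 1 and 2 of the first. The means were 2955 ± 1186 CPM and 1710 ± 972 CPM (SD, n = 3), a 1.73-fold lower level with a log2 fold change of -0.79 (95% interval -2.10 to 0.52, edgeR adjusted p = 0.664). Without VHL-KO;SETD2-KO replicate 3 the log2 fold change was -1.35 and passed the unadjusted threshold (edgeR unadjusted p = 0.0477, adjusted p = 0.753), and without VHL-KO replicate 4 it was -0.42. The 6 libraries fell into the same order for Ndrg1 as for Cdh16, with a root mean square difference of 0.41, and 834 of the 14610 other tested genes lay closer to Ndrg1. The ratio of Ndrg1 to Cdh16 lay between 1.91 and 4.51, with 3.32 to 4.14 in VHL-KO;SETD2-KO. Ankrd37, which encodes a small ankyrin repeat protein, had 4.36, 2.13 and 5.52 CPM against 2.71, 3.27 and 6.34 CPM, from 23 to 101 counts. Its labels overlapped, with a log2 fold change of 0.03 (95% interval -1.25 to 1.31, edgeR adjusted p = 0.987), and 0.32 without VHL-KO replicate 4. The other HIF target nearest to it in profile was Egln3, with a root mean square difference of 0.31.

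**Figure D3:**
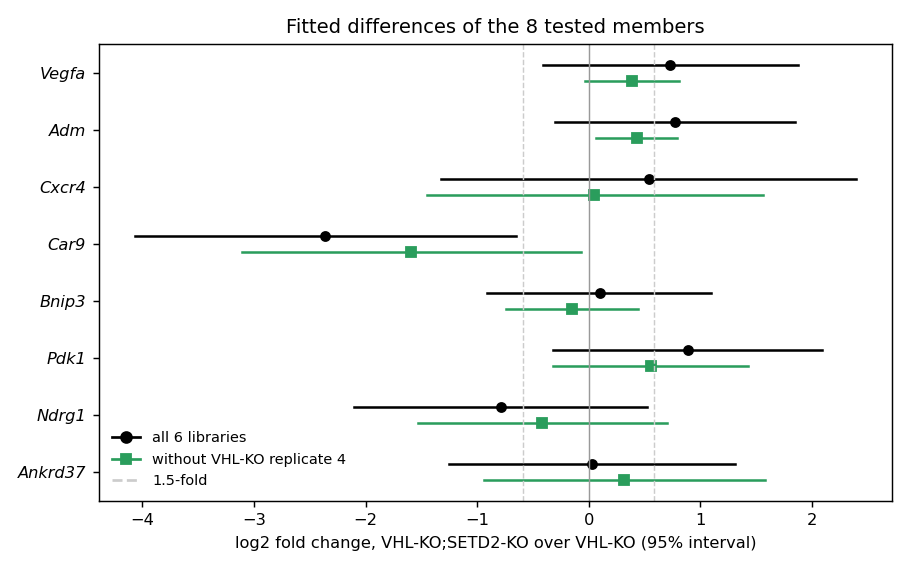
Log2 fold changes of the 8 tested members, VHL-KO;SETD2-KO minus VHL-KO, with 95% intervals from edgeR. Circles use all 6 libraries and squares leave out VHL-KO replicate 4, and dashed lines mark a 1.5-fold change. The interval of Car9 lies below 0 in both fits, that of Adm above 0 in the second fit only.

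Levels of different genes were compared per kb of exon. Ndrg1 stood highest, at a mean of 354 CPM per kb over the 6 libraries, and its lowest library (167) was above the highest of Vegfa (98.8). Vegfa followed with 76.6 CPM per kb and Bnip3 with 46.5, and their ranges of 26.5 to 98.8 and 28.4 to 62.5 overlapped. Adm, Car9, Cxcr4 and Pdk1 followed at 8.20, 8.17, 7.80 and 5.04 CPM per kb with overlapping ranges, and no library of theirs, up to 25.1, reached the lowest of Bnip3. The order of Adm and Car9 differed by label, with means of 6.05 and 13.7 CPM per kb in VHL-KO and 10.3 and 2.66 in VHL-KO;SETD2-KO. Ankrd37 at 2.63 overlapped these genes, and Epo lay lowest at 0.190. Over the 6 libraries the range was smallest for Bnip3, at 2.20-fold, and largest for Car9 among the members above 0 in every library. Without VHL-KO replicate 4 it was smallest for Adm (1.4-fold) and Vegfa (1.5-fold), followed by Bnip3 (1.71-fold), and that of Car9 was 8.82-fold.

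The HIF subunits themselves were read from the same fit. Hif1a had 62.1 to 75.1 CPM in 5 libraries and 7.58 CPM in VHL-KO replicate 4, and its log2 fold change was 0.55 with that library and 0.05 without it (edgeR adjusted p = 0.797 and 0.880). Arnt, the stable beta subunit, gave 0.42 and 0.08. Epas1, the alpha subunit best known for driving Epo and renal carcinoma, was at 272.3, 320.3 and 125.3 CPM in VHL-KO and at 706.2, 365.3 and 533.5 CPM in VHL-KO;SETD2-KO. It did not overlap between the labels, with a log2 fold change of 1.16 (95% interval -0.02 to 2.34, edgeR adjusted p = 0.625) and 0.85 without VHL-KO replicate 4 (adjusted p = 0.210). Endothelial cells also express Epas1, and its ratio to Pecam1 was 0.601 to 1.30 in VHL-KO and 1.09 to 1.79 in the other.

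A further 39 HIF targets outside glycolysis were read for comparison, of which 37 were tested, 19 with a higher and 18 with a lower fitted level in VHL-KO;SETD2-KO (median log2 fold change 0.052). At the unadjusted threshold 3 were higher and 0 lower, and after adjustment 0 were called by edgeR's quasi-likelihood test, while the unadjusted threshold took 2.65% of all tested genes as higher and 4.68% as lower. DESeq2 called 3 of the 37 without adjustment, and 0 of the 6 to which it gave an adjusted p. The 3 called by edgeR were Loxl2, which cross-links collagen, Edn1, the vasoconstrictor endothelin, and Tgfa, a growth factor of the EGF receptor. Loxl2 had 8.37, 7.12 and 14.4 CPM against 26.4, 17.1 and 19.8 CPM (log2 fold change 1.08, 95% interval 0.09 to 2.07, edgeR adjusted p = 0.625). Edn1 had 5.58, 7.86 and 1.59 CPM against 17.5, 8.95 and 15.0 CPM, with a log2 fold change of 1.46, and Tgfa 7.15, 8.60 and 4.49 CPM against 18.6, 9.12 and 18.9 CPM, with 1.20. All 3 separated the labels, and with them 4 of the 37 were higher without overlap, against 9.62% of all tested genes. For Edn1 and Tgfa the value in VHL-KO;SETD2-KO replicate 3 was close to the highest library labelled VHL-KO, and this was also the library of that label with the lowest endothelial and podocyte marker sums. The part of these cells in the 3 differences was not tested.

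By role, the collagen and matrix genes had 1 of 7 called without adjustment and the vessel and growth genes 2 of 6, all higher. Oxygen sensing feedback had 0 of 4, histone demethylases 0 of 3, mitochondria 0 of 4 and lipid storage 0 of 3. Stress response had 0 of 6, and surface and iron 0 of 4. Over all tested genes this threshold called 2.65% higher and 4.68% lower, and counts in groups this small do not tell the roles apart. The prolyl hydroxylase Egln3, a sensitive HIF target, had 21.1, 16.3 and 47.8 CPM against 18.7, 28.2 and 34.9 CPM, with a log2 fold change of -0.06 that became 0.54 without VHL-KO replicate 4. Bnip3l, the relative of Bnip3 and the other HIF target nearest to Vegfa and Adm in profile, gave 0.45 and 0.02. Its root mean square difference was 0.26 from each, with 686 and 666 of 14610 other genes nearer. Among these targets, Hmox1 (-0.63) and Plin2 (-1.05) were nearest to Ndrg1 and Car9, with root mean square differences of 0.32 and 1.14. Of the 14610 other genes, 246 and 1599 were nearer, so Plin2 was not close to Car9. Hmox1 and Plin2 were highest in VHL-KO replicate 4, at 130.8 and 216.1 CPM, and gave 0.08 and -0.13 without it. Without VHL-KO replicate 4, 7 of the 37 were called higher and 2 lower at the unadjusted threshold, against 8.29% and 7.14% of 15000 tested genes. In that fit the collagen and matrix genes had 3 of 7 called and the vessel and growth genes 3 of 6. Lipid storage had 1 of 3, stress response 1 of 6, and surface and iron 1 of 4. Among the members, 0 were called higher and Car9 was called lower. Leaving out VHL-KO replicate 1, or VHL-KO;SETD2-KO replicate 2 or 4, left 0 of the 37 called.

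**Figure D4:**
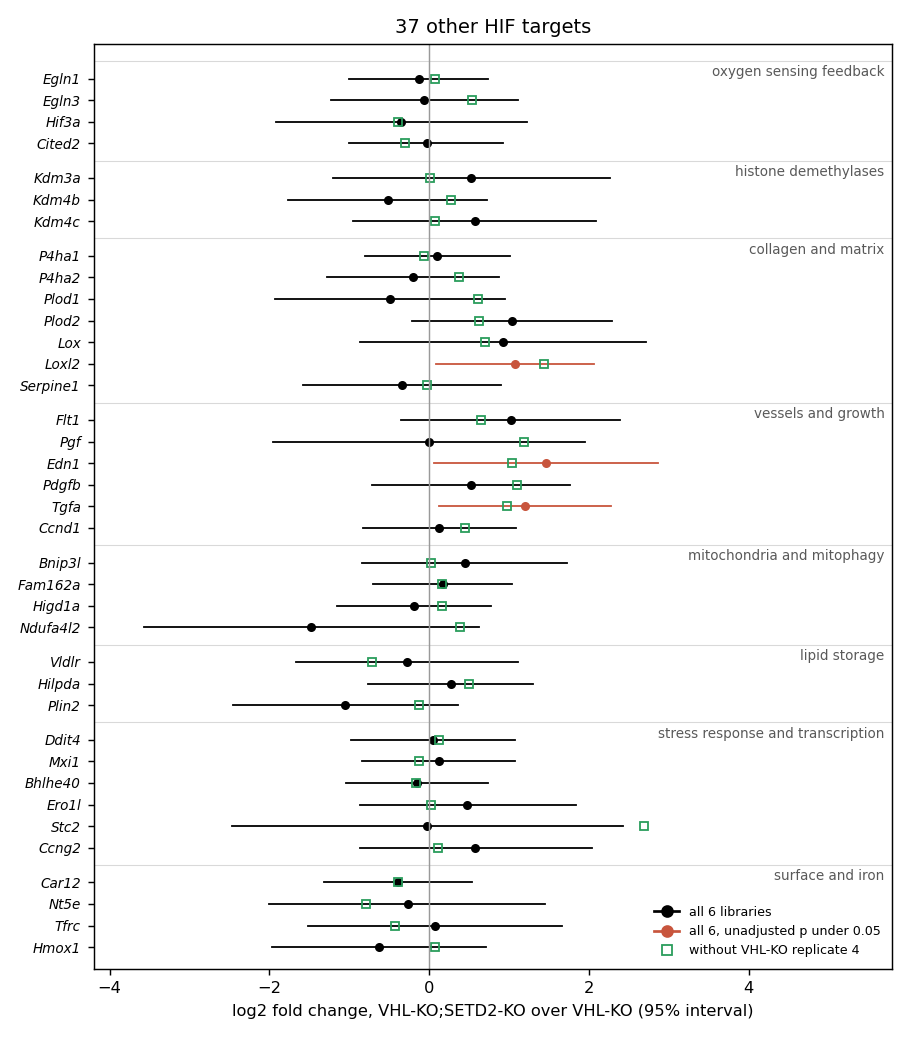
Log2 fold changes of the 37 other HIF targets by role, VHL-KO;SETD2-KO minus VHL-KO, with 95% intervals from edgeR. Red marks the 3 with an unadjusted p under 0.05, and green squares give the value without VHL-KO replicate 4. Most intervals span 0, and many values shift when that library is left out.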

How the data were processed

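RNA-seq counts of 6 PTEC libraries were analysed, 3 per genotype label, grouped by the genotype in the labels. The authors prepared directional paired-end Illumina libraries and deposited raw counts per gene symbol. The submitters' processing notes name HISAT2 2.0.4 and GRCm38, and the counting program, annotation and use of strand are not given in the sources used here. All per-sample columns were used (0 left out).

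From the deposited counts, genes were filtered with filterByExpr (14611 kept), scaled with TMM and tested with edgeR 4.0.16 (quasi-likelihood test, R 4.3.3) on all 6 libraries, with no covariate beside genotype. Benjamini-Hochberg adjustment ran over all tested genes. Standard errors are the unshrunken log2 fold change over the root of F, and 95% intervals follow from them. Calls needed p under 0.05 and a change of 1.5-fold or more, as in the study. Log2 CPM used a prior count of 2. Exon lengths came from GENCODE M21 and promoters from RefSeq's GRCm38.p6. Of the members, 8 matched the promoter table, without Ndrg1.

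The members and lists were chosen with earlier results of these data known. Named genes were the members, Setd2, Vhl, the HIF subunits, Cdh16, other HIF targets that were called, and for each member the other member and other HIF target nearest in centred log2 CPM. Plod2, Stc2 and Nt5e, and the ratios to single genes, were picked with their values in view. DESeq2 1.42.0 and limma 3.58.1 served as alternatives, with other filters, scalings, fold thresholds, the replicate number as a block and each library left out. The main edgeR fit, DESeq2, and limma-voom with and without sample quality weights were first tested on simulated counts. The other settings were not, and the simulated libraries held no outlying library. Libraries of 1 label differed from each other by more than counting error. The labels do not tie libraries to animals, and the study gives 3 mice per group for these data.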

Additional observations from a re-analysis of the deposited data

How the results depend on the processing

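Car9 stayed lower in all 15 alternatives that refit it, with log2 fold changes from -3.20 to -1.36, and Vegfa, Adm, Cxcr4 and Pdk1 stayed higher and Ndrg1 lower in all of them. Bnip3 turned to -0.31 with limma-voom and sample quality weights and to -0.16 with DESeq2 without VHL-KO replicate 4, both chosen after the data were seen, and ranged from -0.15 to 0.26 with each library left out. Ankrd37 gave -0.02 with RLE scaling and -0.40 to 0.32 with each library left out. Vhl gave 0.11 with DESeq2 without VHL-KO replicate 4 and -0.42 to 0.12 with each library left out. The cause was not tested.

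The number of members called without adjustment was 1 or 2 with each library left out. With sample quality weights limma-voom called 2 members after adjustment and 2 without it, Car9 (adjusted p = 0.0389, range over the alternatives 0.0389 to 0.982) and Ndrg1 (adjusted p = 0.0222, range 0.0222 to 0.982), and it called 9 of the other HIF targets at either threshold and 2657 of all genes with and 3651 without adjustment. DESeq2 without VHL-KO replicate 4 called 0 members after adjustment, 4 other HIF targets with and 9 without it, and 1203 and 2610 of all genes. Genes called after adjustment numbered 56 with DESeq2 on all libraries, 2 with no filter, 0 with at least 10 counts in every library, and 0 or 1 with each library left out. Without adjustment, leaving out each library gave 385 to 2314 genes and 0 to 9 other HIF targets. Mitochondrial genes carry symbols such as COX1 here, and the 13 of them were left out by name.

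Replicate numbers 2 and 4 occur under both labels, with no source that pairs them, and deviations from the group means correlated at 0.16 and -0.32. With the replicate block, 147 genes and 0 other HIF targets were called without adjustment, and Car9 remained the 1 member called. Intervals of about 1 to 2 log2 units to either side limit what the members can show with 3 libraries per label, and Epo and Ankrd37 are limited by their counts.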

Other observations

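Some other HIF targets were also read from the fit without VHL-KO replicate 4, and they were picked with their values in view. Stc2, which encodes the secreted glycoprotein stanniocalcin, had 0.546 and 0.463 CPM in VHL-KO replicates 1 and 2, 9.07 CPM in VHL-KO replicate 4, and 2.34, 4.90 and 2.63 CPM in VHL-KO;SETD2-KO. Its log2 fold change was -0.02 with all libraries and 2.69 without VHL-KO replicate 4 (edgeR adjusted p = 0.0938). Plod2, a lysyl hydroxylase of collagen, had 46.5, 50.5 and 12.5 CPM against 82.3, 71.5 and 71.6 CPM. Its labels did not overlap, as for Loxl2, Edn1 and Tgfa, and 9.62% of all tested genes were likewise higher without overlap. Its log2 fold change was 1.04 with all libraries and 0.63 without VHL-KO replicate 4 (edgeR adjusted p = 0.625 and 0.105). Nt5e, the adenosine-producing ectonucleotidase, had 123.4 and 117.2 CPM in VHL-KO replicates 1 and 2 against 92.5, 52.9 and 63.7 CPM, with 12.3 CPM in VHL-KO replicate 4. Its log2 fold change was -0.27 with all libraries and -0.79 without that library (edgeR adjusted p = 0.902 and 0.173).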
